A study of Mus musculus with 6 samples.

Results

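The genes described here are 9 mouse transcription factors of the signal transducer and activator of transcription (STAT) and interferon regulatory factor (IRF) families: Stat2, Stat5a, Stat6, Irf1, Irf2, Irf3, Irf5, Irf7 and Irf9. They were chosen by name, as 9 of the 41819 genes in the deposited count table, with earlier results of these data known but without a rule on measured values. The table holds 7 further genes of both families, which were not chosen and are described only together, without names.

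STAT proteins wait in the cytoplasm until a Janus kinase on an activated cytokine receptor phosphorylates them, after which they pair and enter the nucleus. IRF proteins share a DNA-binding domain that reads GAAA-containing elements, and several of them are switched on by kinases downstream of sensors of foreign nucleic acid. In fibroblasts the families meet in the interferon response, in which IRFs drive interferon genes, STATs and an IRF carry the interferon signal back to the nucleus, and the genes induced there include several of the factors themselves.

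All 6 samples were polyA-selected RNA of 3T3 cells, a mouse fibroblast line, carrying a lentiviral cassette in which a doxycycline-responsive TetOne promoter drives human poly(ADP-ribose) glycohydrolase (hPARG), the enzyme that degrades poly(ADP-ribose), together with the fluorescent protein mClover3. Per the study's methods they came from 1 hPARG-positive clone kept in puromycin. The control group was 3 samples grown without doxycycline (0 ng/ml) and the hPARG group was 3 samples grown for 72 h with 500 ng/ml doxycycline, and the labels type the line as malignant. The comparison asks what hPARG expression does to the transcriptome. None of these samples received doxycycline without carrying the cassette, so doxycycline and hPARG cannot be told apart in them. The study's supplement describes quantitative PCR of selected genes that also took in doxycycline-treated cells without the cassette, which is not examined here. The labels speak of wells and the methods of dishes, and nothing names separate clones, so p-values measure the spread between dishes of the same cells. In such bulk samples fewer cells of a type and less RNA per cell cannot be told apart either.

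Total counts lay between 21619908 and 25263818 per dish, and 11509 genes passed the filter on low counts. The human cassette has no entry in the table, so the induced gene could not be checked directly; the endogenous mouse gene Parg had 48.6, 56.7 and 48.6 CPM (counts scaled to the same normalized library size) in control and 50.2, 57.7 and 50.3 CPM in hPARG cells (log2 fold change 0.04, SE 0.112). Summed fibroblast markers stood at 7216 to 8400 CPM in control and 8306 to 9534 CPM in hPARG cells, led by genes such as Vim and Col1a2, while Dcn was near 0. Of the 9 tested, 1 had a log2 fold change below 0, and the 3 with the smallest p-values were Col3a1 (log2 fold change 0.39, SE 0.122), Pdgfra (−0.40, SE 0.128) and Thy1 (0.30, SE 0.101), none of them called. Leukocyte markers summed to 5.29 to 9.25 CPM in control and 5.44 to 9.08 CPM in hPARG cells, carried by Lyz2 (4.34 to 7.65 CPM and 4.204 to 7.615 CPM) and Cd68 (0.602 to 1.08 CPM and 0.504 to 0.963 CPM), while Adgre1 and Cd3e were at 0 in every dish, and epithelial and endothelial markers to 1.76 to 1.98 CPM and 1.38 to 1.74 CPM. Vim, Col1a2, Dcn, Adgre1 and Cd3e were named after their values were seen. The part of these marker levels in the results was not tested.

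Irf1 had the smallest p-value of the 9 genes. Irf1 and Stat2 were the only members whose dishes did not overlap between the groups, as was so for 9.62% of all tested genes. Neither passed the test across all genes with group as the only term, and the remaining 7 members overlapped between the groups. The short stretches below show what the promoters of Irf1, Stat2 and Irf2 hold upstream of the RefSeq transcription start, because these 3 hold the letters of a motif that STAT or IRF proteins read. Capitals mark the matches to 3 motifs: the interferon-stimulated response element core (ISRE, the letters TTTC, any 2 bases and TTTC again, read by IRFs and by the STAT2 complex), the gamma-activated site core TTCNNNGAA (GAS, read by STAT dimers) and the kB motif read by NF-kB. The Irf1 stretch is chr11:53769904-53770013, that of Stat2 is chr10:128270263-128270302 and that of Irf2 is chr8:46739495-46739539, all from RefSeq on GRCm38.p6 and printed on the plus strand.
Irf1: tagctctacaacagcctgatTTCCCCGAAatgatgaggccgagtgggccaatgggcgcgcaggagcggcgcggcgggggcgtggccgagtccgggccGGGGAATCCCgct
Stat2: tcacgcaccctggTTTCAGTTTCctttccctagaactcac
Irf2: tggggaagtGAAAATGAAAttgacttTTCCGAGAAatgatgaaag

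In Irf1 the GAS core lies 90 to 82 bases before the start and the kB motif 13 to 4 bases before it. The Stat2 stretch holds an ISRE core 222 to 213 bases before the start. The Irf2 stretch holds an ISRE core on the other strand, 241 to 232 bases before the start, followed by a GAS core at 224 to 216 bases. Irf2 also has a kB motif 17 to 8 bases before its start, and Stat5a has one 234 to 225 bases before its second annotated start.

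Windows from 250 bases before to 50 bases after a start were found for all 9 members, 12 windows in total, and both strands were searched. Among all 32851 RefSeq windows of that length, 3.44% held the ISRE core, 8.30% the GAS core and 8.46% the kB motif. No match overlapped another in the member windows. Irf3, Irf5, Irf7, Irf9 and Stat6 held none of the 3 motifs, which says only that these letters are not in these windows. A match is a string of letters and not a measured binding site.

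**Figure D1:**
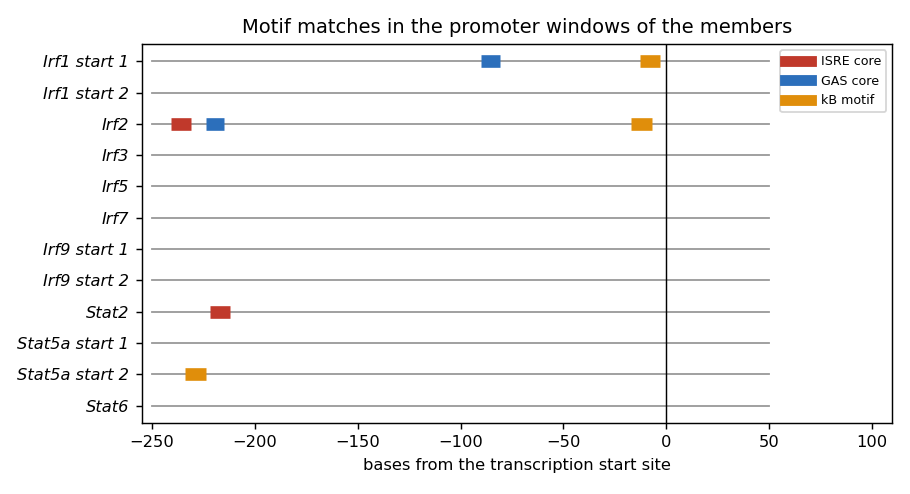
Matches to the ISRE core, the GAS core and the kB motif in the promoter windows of the 9 members, plotted as distance in bases from the RefSeq transcription start. Irf1, Irf2, Stat2 and Stat5a hold at least 1 match and the other 5 members hold none.

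STAT2 and IRF9 form, with a further STAT, the complex ISGF3 that carries the type I interferon signal to the ISRE. Stat2 (ENSMUSG00000040033, GRCm38 chromosome 10, 128270559 to 128292849, plus strand) had 20.3, 21.5 and 20.8 CPM in control and 18.7, 18.7 and 16.7 CPM in hPARG cells. Every hPARG dish lay below every control dish, and the means were 20.9 ± 0.608 and 18.0 ± 1.12 CPM (SD, n = 3). The difference was 1.16-fold, a log2 fold change of −0.21 (SE 0.101, 95% interval −0.44 to 0.02), and edgeR's quasi-likelihood test gave a Benjamini-Hochberg adjusted p of 0.999.

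Irf9 (ENSMUSG00000002325, chromosome 14, 55603571 to 55610030, plus strand), the DNA-binding subunit of ISGF3, had 5.11, 6.88 and 8.53 CPM in control and 6.14, 5.15 and 6.84 CPM in hPARG cells. The groups overlapped, with the lowest dish of all in control. Its log2 fold change of −0.18 (SE 0.211, 95% interval −0.67 to 0.31) had the widest standard error of the 9 members. Of its exon bases, 2.28% also belong to Rnf31 on the same strand. Per length, Stat2 stood 2.91, 2.29 and 1.79 times as high as Irf9 in the control dishes and 2.23, 2.66 and 1.80 times in the hPARG dishes, so the balance of these ISGF3 subunits overlapped between the groups (RPKM ratio 2.33 ± 0.561 and 2.23 ± 0.433, SD, n = 3, two-sided exact permutation p = 0.80, where 0.10 is the smallest possible).

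IRF3, IRF5 and IRF7 are the members that sensors of viral nucleic acid switch on by phosphorylation. Irf3 (ENSMUSG00000003184, chromosome 7, 44997648 to 45002848, plus strand), which is made constitutively and starts the interferon-beta response, had 23.9, 23.9 and 25.8 CPM in control and 26.5, 21.2 and 22.5 CPM in hPARG cells. The groups overlapped, and the highest dish was an hPARG dish. Its log2 fold change was −0.07 (SE 0.118, 95% interval −0.34 to 0.20).

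Irf5 (ENSMUSG00000029771, chromosome 6, 29526625 to 29541871, plus strand), best known from Toll-like receptor signalling in myeloid cells, had 9.45, 10.8 and 8.91 CPM in control and 9.35, 8.16 and 7.80 CPM in hPARG cells. hPARG 1 lay within the control range and the other two hPARG dishes lay below it. The log2 fold change was −0.20 (SE 0.133, 95% interval −0.51 to 0.11). Of its exon bases, 14.1% overlap Tnpo3 on the other strand, and whether the authors' counting used strand is not given in the sources used here, so reads of the 2 genes may be mixed.

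Irf7 (ENSMUSG00000025498, chromosome 7, 141262706 to 141266481, minus strand), an amplifier of the response that interferon itself induces, had 10.5, 9.16 and 11.3 CPM in control and 10.2, 5.89 and 7.89 CPM in hPARG cells. hPARG 2 and hPARG 3 lay below all controls, and hPARG 1 lay among them. With means of 10.3 ± 1.06 and 7.99 ± 2.14 CPM (SD, n = 3) the log2 fold change was −0.37 (SE 0.202, 95% interval −0.84 to 0.10). The value rests on single dishes, being −0.58 without hPARG 1 and −0.19 without hPARG 2.

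Irf7 also varied most of the 9 members over the 6 dishes, with an SD of 0.345 in log2 CPM against 0.0860 for Stat6, the least variable. The 3 tested genes whose centred log2 CPM profiles came closest to that of Irf7 over the 6 dishes were B3galt4, Fbxl15 and Ccdc51, with root mean square differences of 0.0745, 0.0790 and 0.0804. Fbxl15 had 21.2, 18.4 and 20.8 CPM in control and 20.7, 13.1 and 16.3 CPM in hPARG cells, the same order of hPARG dishes as Irf7. In all 3 genes and in Irf7 the lowest dish was hPARG 2. Since the genes were chosen by closeness over these same dishes, the shared order follows from the choice and is no separate result. B3galt4 lay low, at 0.577 to 1.178 CPM.

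**Figure D2:**
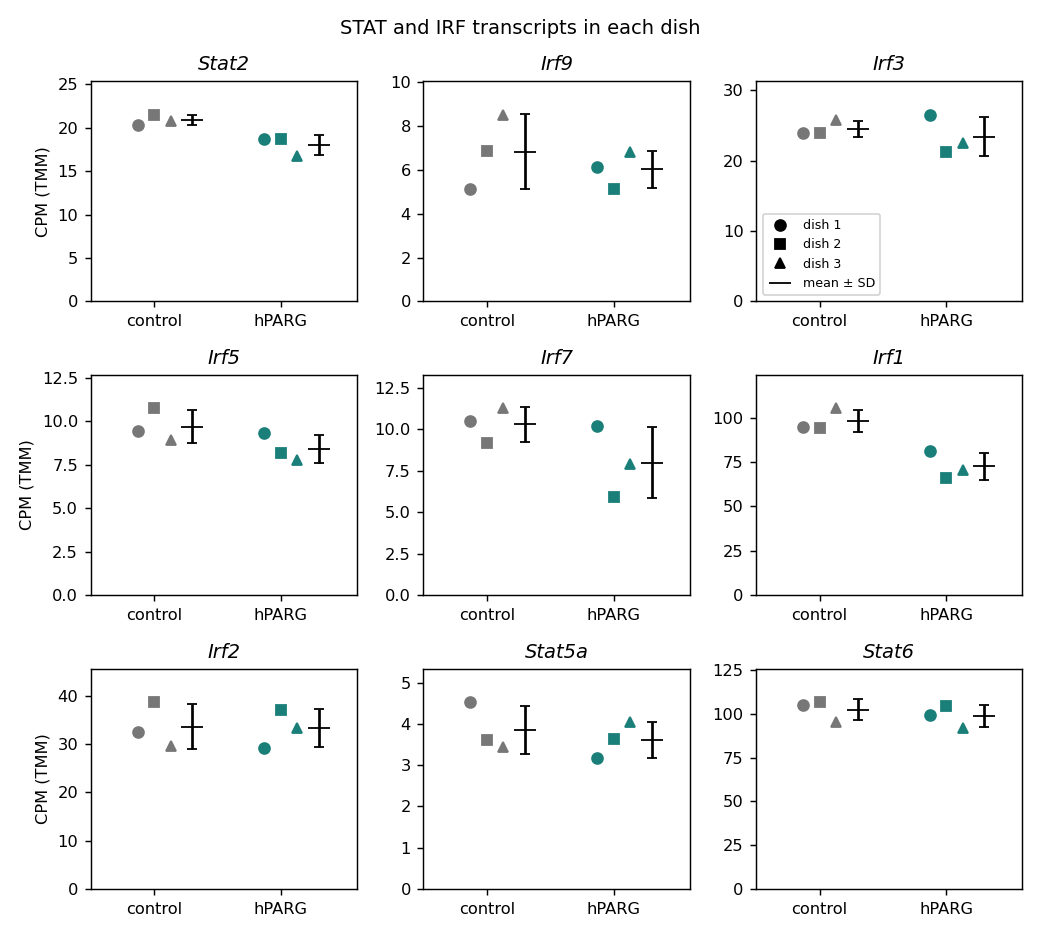
CPM of each of the 9 members in each of the 3 control and 3 hPARG dishes, with the group means and SD. Irf1 and Stat2 are the members in which every hPARG dish lies below every control dish, as is so for 6.00% of all tested genes.

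IRF1 and IRF2 bind the same element with opposite textbook roles, IRF1 as an activator that interferon-gamma and NF-kB induce and IRF2 mainly as a repressor that competes with it. Irf1 (ENSMUSG00000018899, chromosome 11, 53770014 to 53778374, plus strand) had 94.96, 94.46 and 105 CPM in control and 81.0, 66.1 and 70.6 CPM in hPARG cells. Those values rest on 2433, 2196 and 2233 counts in control and 1768, 1605 and 1538 counts in hPARG dishes. All 3 hPARG dishes lay below all 3 controls, with hPARG 1 nearest to them.

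The Irf1 means of 98.2 ± 6.09 and 72.6 ± 7.65 CPM (SD, n = 3) correspond to a 1.35-fold difference, a log2 fold change of −0.44 (SE 0.112, 95% interval −0.70 to −0.18). The unadjusted p of edgeR's quasi-likelihood test across all genes was 0.00473, rank 74 of 11509 genes, and the Benjamini-Hochberg adjusted p was 0.713. Irf1 is thus the only member with an unadjusted p under 0.05 in this fit, a level that 3.95% of all tested genes reached. With the replicate number as a block, the same test gave Irf1 an adjusted p of 0.00691. In that fit 2.87% of all tested genes had an adjusted p under 0.05. Gm17334 on the other strand shares 3.40% of the exon bases of Irf1.

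Irf2 (ENSMUSG00000031627, chromosome 8, 46739732 to 46847458, plus strand) had 32.5, 38.7 and 29.7 CPM in control and 29.3, 37.1 and 33.4 CPM in hPARG cells. The ranges nearly coincided, and dish 2 was the highest in both groups. Its log2 fold change was −0.02 (SE 0.139, 95% interval −0.34 to 0.31), the smallest of the 9 in size, and its sign turned without control 2 (0.10) or without hPARG 1 (0.068). Per length, in the deposited RPKM, Irf1 stood 2.34, 1.96 and 2.84 times as high as Irf2 in control. In hPARG dishes it stood 2.22, 1.43 and 1.69 times as high. The means of 2.38 ± 0.442 and 1.78 ± 0.403 (SD, n = 3) overlapped in their dishes and gave a two-sided exact permutation p of 0.20, where 0.10 is the smallest that 3 against 3 dishes allow.

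Over all tested genes, the deviation of dish 2 from its group mean rose with exon length in both groups. The Spearman correlation across genes was 0.530 in control 2 and 0.521 in hPARG 2, against −0.513 to −0.252 in the other dishes. Genes are not independent replicates. Deviations from a group mean cancel out over its dishes, so a positive trend in a dish brings negative ones in the others. Which dish departed is therefore not shown. Irf2, with 7396 exon bases, stood 0.21 and 0.17 (log2 CPM) above its group means in dish 2 of control and hPARG. Irf7, with 3776 exon bases, stood at −0.17 and −0.40 in the same dishes. Exon bases count every base in an annotated exon of any transcript and can exceed the length of a transcript. For Irf7 they form 1 block over the whole gene. Irf1, with 3976, also lay below its group means in both, at −0.0545 and −0.129, and Irf3, with 3442, at −0.038 and −0.137. Stat2, with 5926, lay above in both, at 0.043 and 0.055, and Stat6, with 4402, at 0.059 and 0.087. Stat5a, Irf5 and Irf9 did not follow length in both dishes. Stat5a, with 7133 exon bases, stood at −0.085 and 0.014. Irf5, with the fewest exon bases (2905), stood at 0.15 and −0.044, and Irf9, with 5386, at 0.040 and −0.22. In a fit that corrected each dish for exon length the log2 fold changes of Irf1 and Irf7 were −0.43 and −0.36.

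STAT5A and STAT6 answer to cytokines outside the interferon system, STAT5A to prolactin, growth hormone and interleukin-2 family signals and STAT6 to interleukin-4 and interleukin-13. Stat6 (ENSMUSG00000002147, chromosome 10, 127642986 to 127660957, plus strand) had 105, 107 and 95.6 CPM in control and 99.5, 105 and 92.1 CPM in hPARG cells. The groups overlapped, and the log2 fold change was −0.05 (SE 0.0996, 95% interval −0.28 to 0.18). Stat6 is the member measured with the smallest standard error.

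Stat5a (ENSMUSG00000004043, chromosome 11, 100859351 to 100885169, plus strand) had 4.53, 3.61 and 3.44 CPM in control and 3.16, 3.63 and 4.04 CPM in hPARG cells, from 69 to 116 counts per dish. The groups overlapped, the highest dish being control 1, and the log2 fold change was −0.10 (SE 0.187, 95% interval −0.53 to 0.33). A neighbouring gene on the other strand shares 1.01% of its exon bases.

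Levels per length are given in the deposited RPKM (reads scaled by the authors' gene length and sequencing depth). Those lengths are not the exon bases given above. In control 1 Irf2 had 832 counts at 10.9 RPKM and Irf5 had 242 counts at 3.21 RPKM, which takes similar lengths. Their exon bases are 7396 and 2905, so the order of levels and the RPKM ratios depend on the authors' lengths. As means over the 6 dishes the members spread from 24.5 for Stat6 down to 0.835 for Stat5a. Stat6 (21.5 to 27.1 RPKM) and Irf1 (17.7 to 27.1 RPKM) overlapped at the top and made up 30.7% and 28.2% of the summed member RPKM. Irf2 followed at 11.1 (9.54 to 13.3) and Irf3 at 8.56 (7.67 to 9.40), each clear of its neighbours in every dish. Stat2 at 4.07 (3.36 to 4.69) overlapped Irf7 at 3.47 (2.27 to 4.16), which in turn overlapped Irf5 at 3.04 (2.51 to 3.75).

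Irf9 at 1.83 (1.48 to 2.37) and Stat5a at 0.835 (0.701 to 1.03) closed the order without overlap. Among the tested genes Stat6 stood at percentile 77.5 of RPKM, Irf3 at percentile 51.2 and Stat5a at percentile 11.9. Stat2 stood at percentile 33.1 and Irf9 at percentile 19.8 with Irf7 between them, while Irf1, also inducible by interferon, stood at percentile 75.8.

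**Figure D3:**
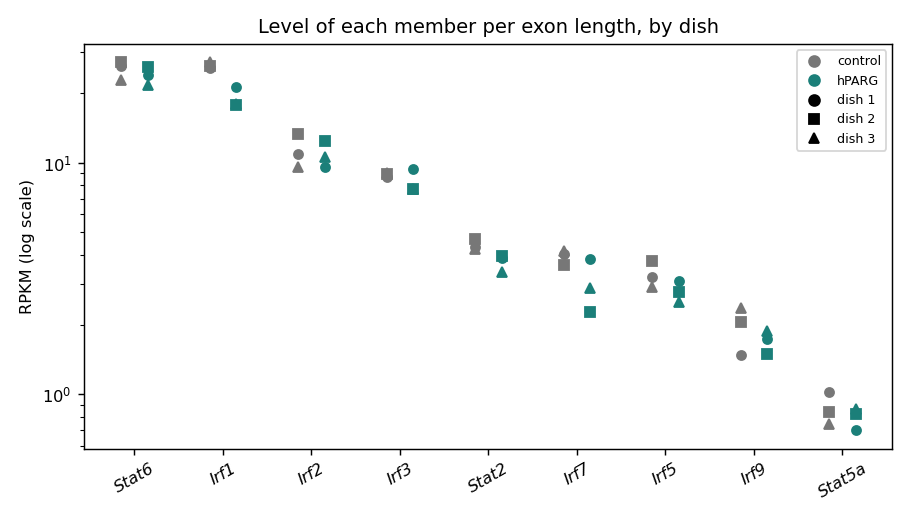
Deposited RPKM of the 9 members in the 6 dishes on a log axis, ordered by the mean. Stat6 and Irf1 overlap at the top, near 24.5 and 22.6 RPKM, and Stat5a lies lowest at 0.835 RPKM.

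With all members set side by side, 9 of 9 log2 fold changes were below 0, as were 49.1% of those of all tested genes; the sign of Irf2 turned without control 2 or hPARG 1, that of Irf9 without control 3 and that of Stat5a without control 1, and that of no member under another scaling. The median member log2 fold change was −0.18, and the median over all 11509 genes was 0.0039. A call needed both an adjusted p under 0.05 and a change past 2-fold, and edgeR's quasi-likelihood test called 0 of 9 members and 0.0869% of tested genes, with or without the fold limit. DESeq2 and edgeR's likelihood ratio test also called 0 members, and 0.191% and 0.261% of tested genes. At an unadjusted p under 0.05 each of the 3 tests had 1 member, and 3.95%, 4.05% and 4.14% of tested genes in the same order.

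The groups did not overlap in 2 of 9 members, Irf1 and Stat2, both lower in hPARG cells, and in 9.62% of all tested genes (6.00% lower and 3.61% higher). Without hPARG 1 the count was 5, with Irf3, Irf5 and Irf7 added (17.4% of all tested genes), and without control 3 it was 4, with Irf5 and Stat6 added (15.4%). All 9 members had 95% intervals of the log2 fold change that lay inside 2-fold in either direction, from −0.84 at the lowest bound to 0.33 at the highest. That was also so for 90.8% of tested genes.

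Of the 7 further STAT and IRF genes in the table, 3 passed the filter, with log2 fold changes from −0.41 to 0.09. By edgeR's quasi-likelihood test, DESeq2 and the likelihood ratio test 0 were called and 1 had an unadjusted p under 0.05, being lower in hPARG cells. Among the other 4, 3 had at most 3 counts in every dish.

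**Figure D4:**
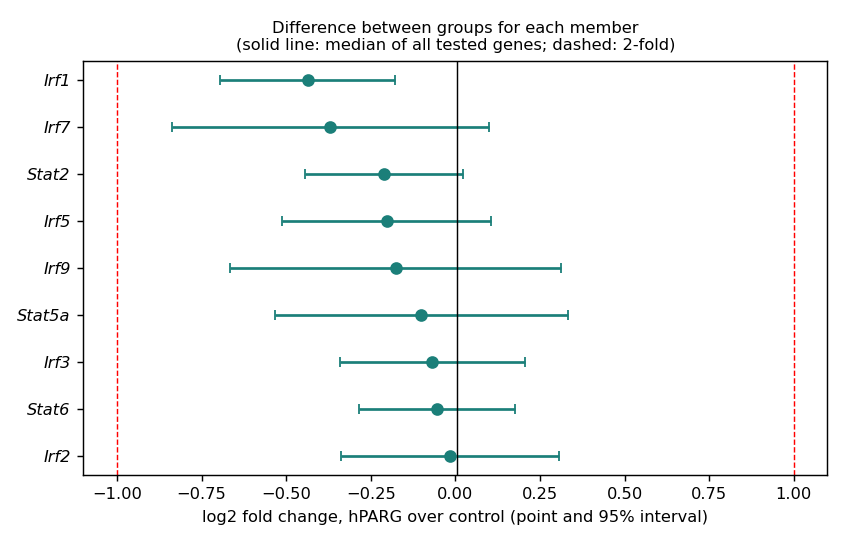
Log2 fold change of hPARG over control for each member with its 95% interval from edgeR's quasi-likelihood fit. All 9 points lie below 0, and the interval of Irf1 (−0.70 to −0.18) is the only one that does not include 0.

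The other genes of the pathway were taken from 7 lists written by hand with earlier results of these data known. For comparison, edgeR's quasi-likelihood test called 0.0869% of all tested genes, and 3.95% had an unadjusted p under 0.05. The ligands gave nothing to test: all 21 interferon genes in the table had at most 3 counts in every dish, and 16 of them had a count of 0 in all dishes. Of 15 tested receptors and Janus kinases, 8 had a log2 fold change below 0, the median was −0.04, and 0 were called and 1 had an unadjusted p under 0.05. Il4ra, the interleukin-4 receptor chain upstream of Stat6, had 17.9, 16.5 and 17.7 CPM in control and 15.6, 14.3 and 14.2 CPM in hPARG cells, without overlap (log2 fold change −0.24, SE 0.102, adjusted p 0.999 by edgeR's quasi-likelihood test). Jak3, a Janus kinase of the interleukin-2 receptor family, lay the other way, at 18.6 to 21.1 CPM in control and 21.97 to 22.51 CPM in hPARG cells (log2 fold change 0.17, SE 0.0992). Osmr, the oncostatin M receptor, had 9.29 to 10.2 CPM in control and 8.16 to 9.15 CPM in hPARG cells.

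Nucleic acid sensors, adaptors and the kinases of IRFs had 22 tested genes, of which 13 lay below 0, with a median of −0.01, 0 called and 2 at an unadjusted p under 0.05. The adaptors Myd88 and Ticam1 (TRIF), which lead from Toll-like receptors to IRF5, IRF7 and IRF3, differed in opposite directions. Myd88 had 40.9, 38.2 and 42.5 CPM in control and 33.4, 29.4 and 30.1 CPM in hPARG cells (log2 fold change −0.39, SE 0.102, adjusted p 0.713 by edgeR's quasi-likelihood test). Ticam1 had 6.91, 7.83 and 7.21 CPM in control and 9.90, 11.1 and 9.22 CPM in hPARG cells (log2 fold change 0.46, SE 0.127, adjusted p 0.792 by the same test). In both genes the dishes of the groups were apart, and neither passed the test across all genes. Dhx58 (LGP2), a regulator of the RIG-I-like sensors, lay at 1.29 to 2.02 CPM in control and 1.03 to 1.15 CPM in hPARG cells (log2 fold change −0.62, SE 0.269).

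Among 21 tested negative regulators, 12 lay below 0, the median was −0.03, and 0 were called and 2 had an unadjusted p under 0.05. Usp18, the protease that silences the interferon receptor and is itself interferon-induced, had 6.25, 11.4 and 10.2 CPM in control and 6.01, 4.78 and 6.61 CPM in hPARG cells. The groups overlapped through control 1, and the log2 fold change was −0.68 (SE 0.242, adjusted p 0.999 by edgeR's quasi-likelihood test). Socs1, an inhibitor of Janus kinases, had 25.7, 22.6 and 26.4 CPM in control and 22.3, 19.4 and 19.3 CPM in hPARG cells (log2 fold change −0.30, SE 0.115). Trim21, a ubiquitin ligase of several IRFs, overlapped between the groups at a log2 fold change of −0.29 (SE 0.149).

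Partners and coactivators gave 14 tested genes, of which 5 lay below 0, with a median of 0.06, 0 called and 0 at an unadjusted p under 0.05. Kpna1, an importin that carries STATs into the nucleus, had 90.5 to 93.0 CPM in control and 95.5 to 102 CPM in hPARG cells (log2 fold change 0.09, SE 0.0879). Ncoa1 and Kpna3 had log2 fold changes of 0.22 (SE 0.205) and −0.07 (SE 0.0889).

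The interferon-stimulated targets, which the ISGF3 subunits, Irf1 and Irf7 act on, were the list with the lowest median. Of 41 tested targets, 39 had a log2 fold change below 0 and the median was −0.32, beside 49.1% and 0.0039 over all tested genes. In 18 targets (43.9%) every hPARG dish lay below every control dish, against 6.00% of all genes, and in 0 targets above. The list was written with earlier results of these data known, and it holds Cxcl10 and Ccl5, which the study reported as lower in these samples. Its genes were measured in the same 6 dishes and are not independent, so these shares are a description and no test. Samhd1 and B2m, named here after their values were seen, were the 2 above 0, at 0.10 and 0.02.

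A single target, Cxcl10, fell past the threshold, from 24.2, 35.2 and 29.7 CPM in control to 11.3, 11.8 and 11.6 CPM in hPARG cells (log2 fold change −1.36, SE 0.150, adjusted p 0.0266 by edgeR's quasi-likelihood test). Cxcl10, a chemokine that draws T cells, was no longer called without control 3 (adjusted p 0.0849), without hPARG 1 (0.257) or without hPARG 3 (0.257). Ccl5, a chemokine gene that IRFs and NF-kB both act on, had 20.8, 20.2 and 23.9 CPM in control and 12.1, 9.03 and 10.4 CPM in hPARG cells (log2 fold change −1.05, SE 0.139, adjusted p 0.0620). Rtp4, an interferon-induced receptor transporter, had 28.8, 29.7 and 30.9 CPM in control and 23.2, 18.6 and 19.0 CPM in hPARG cells (log2 fold change −0.56, SE 0.118, adjusted p 0.419).

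Targets of STAT5 and STAT6 had 12 tested genes, of which 8 lay below 0, with a median of −0.14, 0 called and 2 at an unadjusted p under 0.05. Ccl17, a STAT6-dependent chemokine gene, had 1.13, 0.731 and 0.990 CPM in control and 0.596, 0.371 and 0.688 CPM in hPARG cells (log2 fold change −0.79, SE 0.357, adjusted p 0.999 by edgeR's quasi-likelihood test). Its groups did not overlap, at levels near 1 CPM. Socs1 and Il4ra also belong to this list.

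Across the 7 lists together, which share 5 genes, 121 genes were tested and 1 was called, Cxcl10, by edgeR's quasi-likelihood test. DESeq2 called 2 and the likelihood ratio test 3, all of them interferon-stimulated targets, so that both called 0 genes of the other lists. Of all tested genes the 3 tests called 0.0869%, 0.191% and 0.261% in the same order. The median log2 fold change over the 121 genes was −0.09. Of them, 22.3% had every hPARG dish below every control dish, against 6.00% of all tested genes, while 4 genes had every hPARG dish above. At an unadjusted p under 0.05, 21 were lower (17.4% against 2.54% of all tested genes) and 1, Ticam1, was higher. The interferon-stimulated targets held 17 of these 21. Among the 80 genes outside that list, 4 were lower at that level, and 9 lay below and 4 above without overlap.

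**Figure D5:**
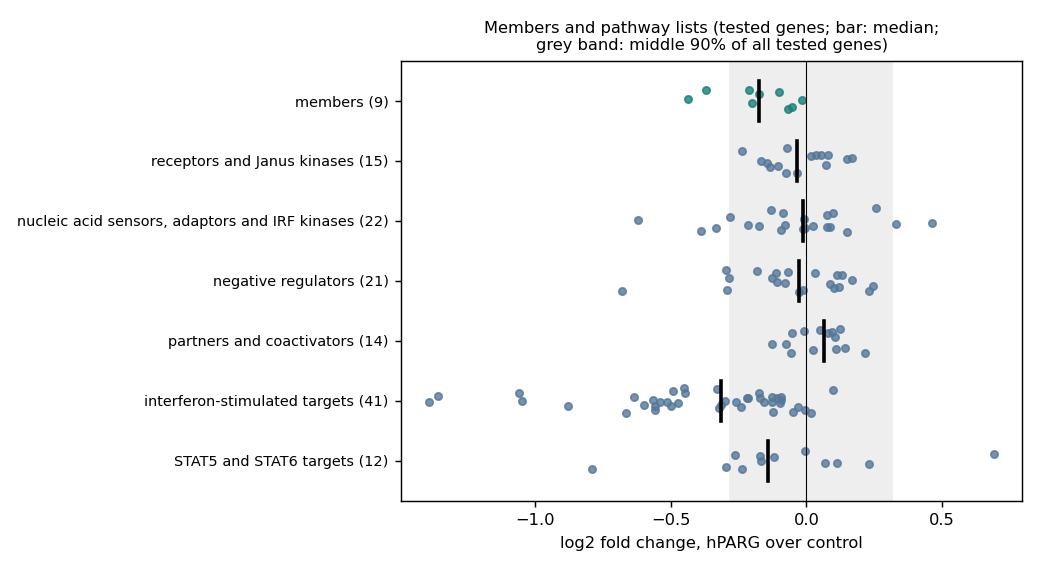
Log2 fold change of hPARG over control for the 9 members and for each tested gene of the pathway lists, with the median of each list and a band that covers the middle 90% of all tested genes (−0.28 to 0.32). The interferon-stimulated targets have a median of −0.32 and the other lists have medians between −0.14 and 0.06.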

How the data were processed

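RNA of 3 control and 3 hPARG dishes was sequenced by the authors as paired reads and, per the study's methods, mapped and counted in CLC Genomics Workbench against Ensembl release 96. The deposited table holds the authors' raw count per gene and sample and their RPKM (scaled by the authors' gene length and depth). It also holds other scaled values and their own comparison of the groups. The counts and RPKM were used, the rest was not. Library sizes were 21619908 to 25263818 counts.

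Genes were filtered with filterByExpr (minimum count 10), TMM-normalized and tested with edgeR 4.0.16 (quasi-likelihood, group as the only term, R 4.3.3), with Benjamini-Hochberg adjustment over 11509 genes; calls needed an adjusted p under 0.05 and more than 2-fold. CPM are TMM-scaled. The fit was tested on simulated data that had the smaller spread left by a replicate block and no dish effect. That does not show how the fit performs at the spread of these dishes. Alternatives were DESeq2 1.42.0, edgeR's likelihood ratio test, other scalings and filters, an exon-length spline (4 degrees of freedom), a replicate block and leaving out dishes. Ratios used exact permutation tests (scipy 1.17.1). Coordinates and exon overlaps come from GENCODE release M21 and promoter windows from RefSeq.

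The members and lists were chosen with earlier results of these data known. Genes named were all 9 members, Parg, every called gene of a list and otherwise up to 3 of its genes with the smallest p, and the 3 genes most like the most variable member. Others are said to be named after their values were seen.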

Additional observations from a re-analysis of the deposited data

How the results depend on the processing

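Over 16 alternatives 0 of 9 members were called at more than 2-fold. Of 144 member log2 fold changes, 137 kept their direction and their side of the threshold, and 5 reversed: Stat5a (0.039 without control 1), Irf9 (0.011 without control 3) and Irf2 (0.10 without control 2, 0.068 without hPARG 1 and 0.014 without both samples numbered 2). With 1 dish left out they ranged from −0.19 to 0.039 (Stat5a), from −0.35 to 0.011 (Irf9) and from −0.10 to 0.10 (Irf2). Irf1 ranged from −0.52 to −0.37 and Irf7 from −0.58 to −0.19. Genes called over the whole table numbered 10, against 22 with DESeq2, 30 with the likelihood ratio test, 16 with no filter on low counts, 19 with the exon length correction, 19 without both samples numbered 2 and 3 to 13 when 1 dish was left out (3 without hPARG 1, 5 without hPARG 3). The cause was not tested. Called list genes were Cxcl10 alone, and Cxcl10 and Ccl5 (2) with DESeq2, library size only, no filter and the exon length correction. The likelihood ratio test called 3, adding Mx2 (named after its values were seen), and leaving out 1 dish gave 0 to 1. Members without overlap numbered 2, beside 9.62% of all tested genes. With 1 dish left out they numbered 2 to 5, beside 14.6% to 23.8% of all tested genes, where fewer dishes make separation easier. The 5 came without hPARG 1 (17.4% of all tested genes). Without both samples numbered 2 they numbered 3, beside 35.4% of all tested genes.

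Equal replicate numbers were not taken to pair the dishes: deviations of same-numbered dishes correlated at 0.0963, 0.610 and 0.168, and control 1 and control 3 correlated best with another number. Dish 2 of both groups shared the sign of the trend with exon length given above. Whether the numbers mark a shared batch was not tested. A replicate block lowered the common biological coefficient of variation, the spread between dishes beyond counting noise, from 0.148 to 0.0615. With the replicate number as a block, 23 genes were called, 2 of them in the lists, and 25 and 2 with the exon length correction as well. In either of these fits 3 members had an unadjusted p under 0.05 by edgeR's quasi-likelihood test, beside 17.9% and 18.3% of all tested genes. With the length correction and no block, Stat2 had an unadjusted p of 0.0452 by that test, where 5.40% of all tested genes lay under 0.05. Irf1 then had an adjusted p under 0.05 in edgeR's quasi-likelihood test (1 member at any fold, beside 2.87% and 2.40% of all tested genes; 0.00691 with the block and 0.0152 with the length correction added; 0.00691 to 1 over all alternatives and at least 0.116 without the block).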
